A study of Homo sapiens with 2 samples.

Results

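The miRNAs miR-31, miR-126, miR-335 and miR-206, each described as a suppressor of breast cancer metastasis, were followed through a pull-down of small RNAs from breast cancer cell lysate. They were listed by name, for this described role, with earlier results of these data known, and comprise 7 mature miRNAs from 4 hairpins: both arms of miR-31, miR-126 and miR-335, and the single named arm of miR-206. All 7 names were found among the 2588 mature miRNA names of the deposited tables. The material was lysate of MDA231 cells (also written MDA-MB-231), a triple-negative, mesenchymal-like breast cancer line, labelled parental. In the bait library the amylose resin carried the long non-coding RNA MACC1-AS1, transcribed in vitro with an MS2 tag and held by a fusion of maltose-binding protein and MS2 coat protein. In the no-bait library, per the labels, no RNA substrate was present; both lysates came from the same parental line with no other treatment named. With no control RNA on the resin of the second library, binding to MACC1-AS1, to the tag and to RNA on the resin in general cannot be told apart.

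A miRNA is cut from a hairpin precursor, and 1 arm of the hairpin, 5p or 3p, is usually loaded into an Argonaute protein while the other is mostly discarded. The loaded arm finds its targets mainly through its seed, bases 2 to 8 from the 5′ end. miR-126 and miR-335 were described as miRNAs lost from metastatic derivatives of MDA-MB-231 cells, with SOX4 and TNC among the targets of miR-335 and endothelial recruitment among the processes restrained by miR-126. miR-31 was described as acting on several steps of invasion through targets such as RHOA and ITGA5, and it is known to be low in metastatic breast lines. miR-206 is best known from skeletal muscle, and in breast cancer it was described as a repressor of the oestrogen receptor gene ESR1.

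The mature sequences are shown because they separate these miRNAs from one another and mark the bases that pair with targets. RefSeq (GRCh38.p14) held 6 of the 7, all but hsa-miR-31-3p. Capitals mark the seed, and the prefix hsa, for human, is left out below.
hsa-miR-126-3p: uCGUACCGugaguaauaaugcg
hsa-miR-126-5p: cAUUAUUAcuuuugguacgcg
hsa-miR-335-3p: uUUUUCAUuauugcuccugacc
hsa-miR-335-5p: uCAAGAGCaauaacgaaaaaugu
hsa-miR-206: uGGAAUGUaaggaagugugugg
hsa-miR-31-5p: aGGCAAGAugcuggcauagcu

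No seed was shared among the 6, so they are grouped here by described role and not by common targets. The lengths were 21 to 23 nt, and the share of G and C ran from 30.4% in miR-335-5p to 52.4% in miR-31-5p. The seed of miR-126-5p consisted of A and U at all 7 bases, and that of miR-126-3p at 2 of 7. Of the other names with a RefSeq sequence, only miR-1-3p and miR-613 carried a seed found here, that of miR-206. miR-1-3p, a miRNA of heart and skeletal muscle, matched miR-206 at 18 of 22 positions counted from the 5′ end.

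The hairpins of miR-126 and miR-335 are shown because the data bear on how their arms were used. Capitals mark the mature arms, the 5p arm first.
MIR126: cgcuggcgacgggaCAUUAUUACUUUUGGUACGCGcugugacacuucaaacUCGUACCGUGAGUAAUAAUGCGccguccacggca
MIR335: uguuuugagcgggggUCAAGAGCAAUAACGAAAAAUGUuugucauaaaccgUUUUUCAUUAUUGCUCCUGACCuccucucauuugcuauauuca

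On GRCh38, MIR126 lies at chr9:136670602-136670686 on the plus strand, in an intron of EGFL7, a gene of endothelial cells. MIR335 lies at chr7:130496111-130496204 on the plus strand, in an intron of the imprinted gene MEST, and it also overlaps an exon of the antisense transcript AC007938.2. MIR31 lies at chr9:21512115-21512185 on the minus strand, in an intron of its host transcript MIR31HG. MIR206 lies at chr6:52144349-52144434 on the plus strand, where GENCODE lists no other gene. The sources used here do not give the build behind the deposited counts.

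The 7 miRNAs were a small fraction of the miRNA counts in each library. They summed to 801 counts with bait and 89 counts without. This was 0.0765% of the bait library (95% exact Clopper-Pearson interval 0.0713% to 0.0820%) and 0.0330% of the no-bait library (0.0265% to 0.0406%). miR-126-3p alone supplied 78.7% of these counts with bait and 55.1% without. The libraries held 1047269 counts with bait and 269716 without, with 1 library in each group. These totals sum the miRNA counts, and their 3.88-fold difference is called a difference in depth here. A ratio scaled by these totals compares shares, so the absolute amount of a miRNA on the resin was not measured. No difference below therefore has a replicate check, no p-value was computed, and every interval covers counting error only. Reads without molecular identifiers are not independent molecules, so these intervals can be too narrow even for that error. The label was checked against markers: those of basal breast lines took 36.7% of the library with bait and 50.4% without. Most of this was miR-100-5p (310370 of 384097 and 122128 of 135805 counts). By the rule given below, 2 of the 6 were higher and 1 lower, beside 39.4% higher and 26.8% lower of all 231 tested miRNAs. In the same check the epithelial miR-200 family with miR-205-5p took 0.0181% and 0.0111%. Most of this was miR-200b-3p, with 144 counts with bait and 28 without. miR-200a-3p had 18 and 1, miR-200c-3p 20 and 1, and miR-429 8 and 0. miR-141-3p and miR-205-5p were at 0 counts in both.

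**Figure D1:**
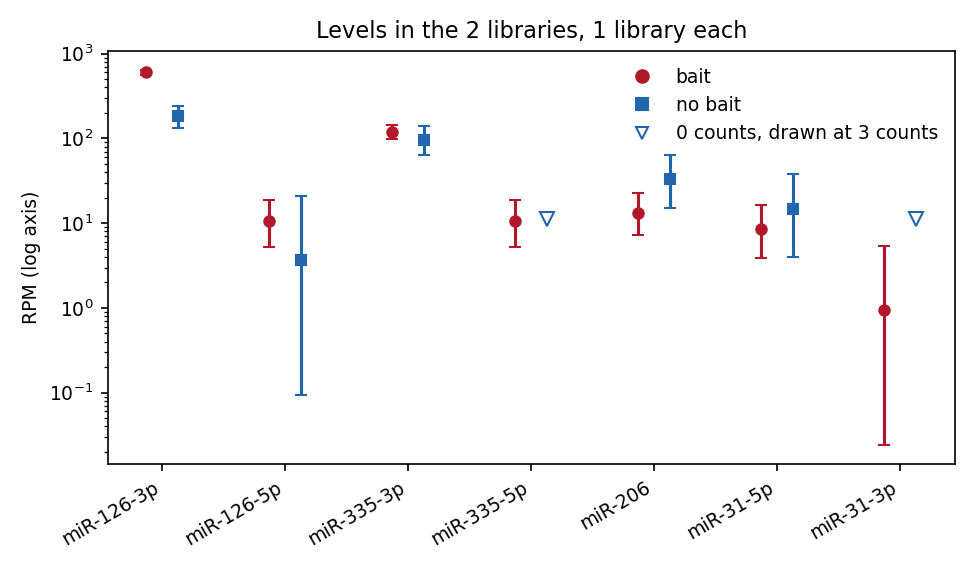
Level of each of the 7 miRNAs in RPM (counts scaled by the library total, log axis) in the bait library (circles) and the no-bait library (squares), with exact Poisson 95% intervals; open triangles mark 0 counts, drawn at the floor of 3 counts. Only the intervals of miR-126-3p are clear of each other, with 601.6 RPM with bait and 181.7 RPM without.

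miR-126-3p was the 1 member that was higher with bait. It had 630 counts (601.6 RPM, 555.5 to 650.4) with bait and 49 counts (181.7 RPM, 134.4 to 240.2) without. An equal share of the no-bait library would have given 162 counts. The bait over no-bait ratio of counts scaled by library totals was 3.31, with an exact conditional binomial interval of 2.47 to 4.52. Testing required 30 or more counts summed over both libraries. A higher call needed a ratio of 2 or more, a lower call one of 0.5 or less, and each an interval that excludes 1. By this rule 39.4% of the 231 tested miRNAs were higher and 26.8% were lower, so a higher call was common in this pair of libraries. Of the 231, 69 had a larger ratio than miR-126-3p, and the median ratio was 1.46. miR-126-3p ranked 59th by counts with bait and 96th without.

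miR-335-3p, the arm of miR-335 opposite to the one described as a suppressor, was the other member with enough counts to test, and it passed neither rule. It had 125 counts (119 RPM, 99.4 to 142) with bait and 26 counts (96.4 RPM, 62.97 to 141) without. The intervals of the levels overlap over most of their length, and the ratio was 1.24 (0.807 to 1.97). This lay below the median of 1.46 of the tested miRNAs, 130 of which had a larger ratio. It ranked 119th with bait and 122nd without. With DESeq2 size factors the ratio was 1.66 and its interval, 1.08 to 2.64, excluded 1 without reaching the 2-fold rule.

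The other 5 members fell under the minimum of 30 counts and were not tested. miR-206 had 14 counts (13.4 RPM) with bait and 9 counts (33.4 RPM) without, which gives a ratio of 0.401 (0.162 to 1.05). The interval reached past 1, so a lower share with bait was not separated from counting error. When the 5 most abundant miRNAs were dropped from the totals, the upper bound was 0.960, below 1, at a ratio of 0.366. miR-31-5p, the arm described as the suppressor, had 9 counts (8.59 RPM) with bait and 4 counts (14.8 RPM) without, for a ratio of 0.579 (0.162 to 2.58). miR-31-3p had 1 count with bait and 0 without, under the floor of 3 counts in both, and gets no ratio. The floor is 2.86 RPM with bait and 11.1 RPM without, and the no-bait floor is close to the levels that most of these had with bait.

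miR-335-5p and miR-126-5p had equal counts with bait and 0 or 1 without. miR-335-5p, the arm described as the metastasis suppressor, had 11 counts (10.5 RPM) with bait and 0 without. At an equal share the no-bait library would have held 2.83 counts, and the interval of the ratio has a lower bound of 0.646, so a difference was not detectable at this depth. miR-126-5p, which is described as acting in endothelial cells, had 11 counts with bait and 1 count in the other library, and the interval of its ratio of 2.83 ran from 0.412 to 122.

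**Figure D2:**
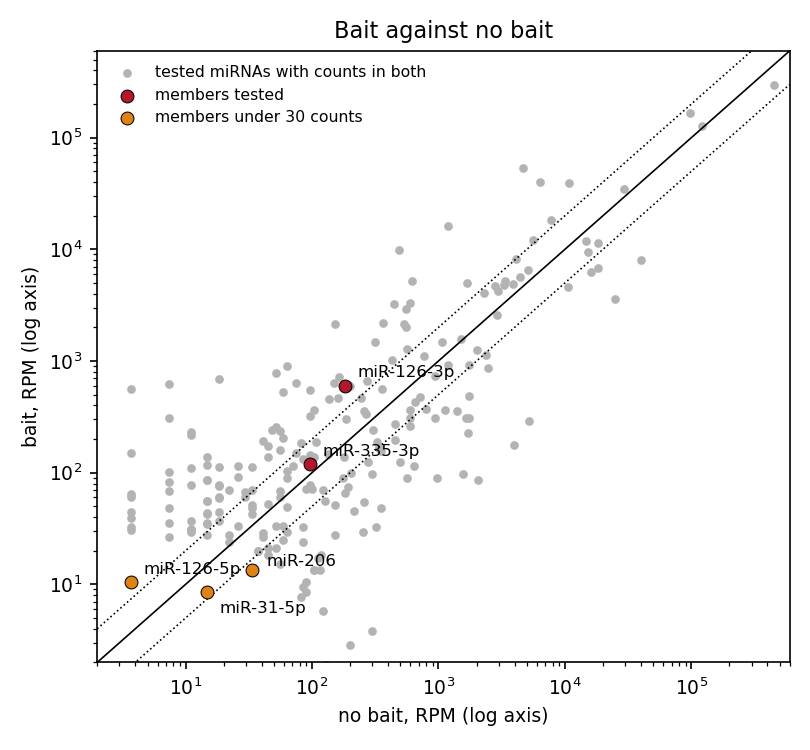
RPM without bait (horizontal) against RPM with bait (vertical), both log axes, for tested miRNAs with counts in both libraries (grey) and for the members with counts in both (red where tested, orange under 30 counts); the solid line is equality and the dotted lines are 2-fold. miR-126-3p lies above the upper dotted line at a ratio of 3.31, miR-335-3p between the lines at 1.24, and miR-206 just below the lower line at 0.401.

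miR-126-3p and miR-335-3p were the most abundant members in both libraries. With bait miR-126-3p exceeded miR-335-3p 5.04-fold (4.15 to 6.16), and without bait 1.88-fold (1.15 to 3.16). miR-335-3p exceeded miR-206 8.93-fold (5.13 to 16.8) with bait and 2.89-fold (1.31 to 7.01) without. Below these, miR-206, miR-126-5p, miR-335-5p and miR-31-5p did not differ from one another with bait beyond counting error, at 9 to 14 counts each. Without bait miR-206 and miR-31-5p did not differ beyond counting error either, with a ratio of 2.25 between them (0.628 to 9.999). There, unlike with bait, miR-206 stood above both remaining arms: the ratio of miR-126-5p to miR-206 was 0.111 (0.00253 to 0.802), and that of miR-335-5p, at 0 counts, had an upper bound of 0.507. These levels were not scaled by length, and ligation preferences differ between sequences and were not measured.

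The change from no bait to bait was not the same for all members. The ratio of miR-126-3p was 2.67 times that of miR-335-3p (exact conditional interval 1.53 to 4.57), 8.27 times that of miR-206 (2.98 to 21.6) and 5.71 times that of miR-31-5p (1.24 to 21.3). The ratio of miR-335-3p was 3.09 times that of miR-206 (1.05 to 8.59). These comparisons set 2 miRNAs against each other within each library and do not depend on how the libraries are scaled. Of 21 pairs of members, 20 gave an interval and 5 of these excluded 1. The fifth set miR-335-5p above miR-206 with a lower bound of 1.18. With intervals widened to 99.75% for the 20 pairs, 2 still excluded 1: miR-126-3p against miR-335-3p (1.14 to 5.98) and against miR-206 (1.73 to 34.7). Summed without miR-126-3p, the other members had 171 and 40 counts in the bait and no-bait libraries, and their joint ratio was 1.10 (0.776 to 1.59). Most of these counts, 125 and 26, were of miR-335-3p, so the joint ratio mainly reflects that miRNA.

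Within each hairpin 1 arm supplied nearly all counts, as the plot of arm shares shows. The 3p arm of miR-126 had 98.3% of the 641 counts of the hairpin with bait (97.0% to 99.1%) and 98.0% of 50 counts without (89.4% to 99.9%). Its odds against the 5p arm differed 1.17-fold between the libraries (0.0266 to 8.35). The 3p arm of miR-335 had 91.9% of 136 counts with bait (86.0% to 95.9%) and all 26 counts without (lower bound 86.8%). The upper bound of the ratio of its odds, bait over no bait, was 2.06, so a shift between the arms was not detectable at this depth. Over both libraries miR-335 gave 151 counts from the 3p arm and 11 from the 5p arm, the arm described as the suppressor. For miR-31 the 5p arm had 9 of 10 counts with bait and all 4 without.

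A dominant arm was usual in these libraries. Of 142 hairpins with both arms named and at least 30 counts over the arms and libraries, 113 had more than 90% of their counts on 1 arm. The 3p arm had more counts in 65 of the 142, and in 45, miR-335 among them, its share was at least the 93.2% of miR-335.

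**Figure D3:**
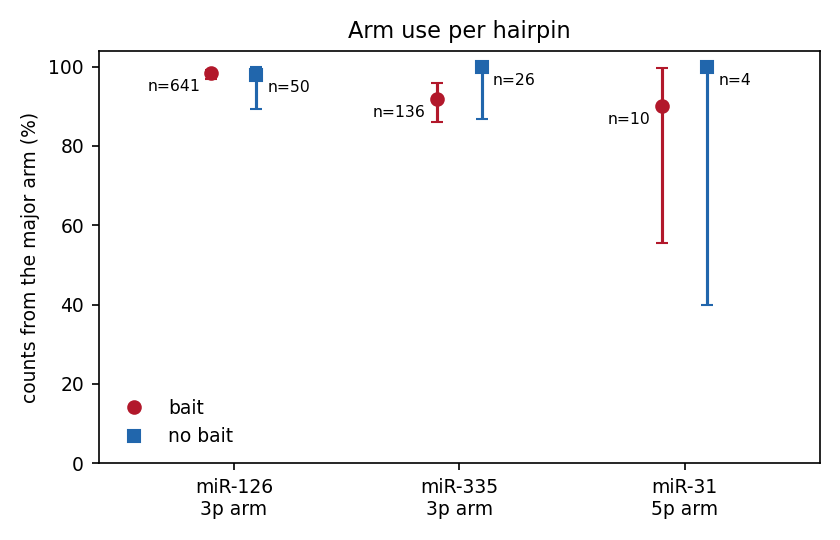
Percent of a hairpin's counts that came from its more abundant arm (vertical axis from 0) for miR-126, miR-335 and miR-31 in the bait (circles) and no-bait (squares) libraries, with exact Clopper-Pearson 95% intervals and the number of counts beside each point. The intervals of the libraries overlap for each hairpin, and that of miR-31 without bait rests on 4 counts.

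The first transcript of MACC1-AS1 listed in GENCODE 29, with 639 nt and 4 exons, was searched for seed matches. Whether GENCODE lists others was not examined. The letters searched, on the transcript strand, were CGGTACG for miR-126-3p, TAATAAT for miR-126-5p, ATGAAAA for miR-335-3p, GCTCTTG for miR-335-5p, ACATTCC for miR-206 and TCTTGCC for miR-31-5p. None of the 6 occurs in this transcript, nor does any of the shorter matches to bases 2 to 7. Of the 2281 deposited names with a RefSeq sequence, 3.90% had a match to bases 2 to 8 and 14.9% a match to bases 2 to 7, so a lack of matches was usual. The absence of these letters says nothing about other pairing, and the isoform and tag used as bait were not examined.

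The miRNAs nearest to miR-126-3p by level in both libraries came from other families. By distance in log2 RPM over the 2 libraries, among 223 tested miRNAs with counts in both, the nearest were miR-93-5p (630 and 54 counts, ratio 3.00), miR-425-5p (659 and 40 counts, ratio 4.24) and miR-20a-5p (757 and 44 counts, ratio 4.43). Nearest to miR-335-3p were miR-589-5p (138 and 23 counts, ratio 1.55), the epithelial miR-200b-3p (144 and 28 counts, ratio 1.32) and miR-4326 (151 and 26 counts, ratio 1.496).

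The levels of muscle miRNAs are given beside miR-206, since it is a muscle miRNA. The 6 names of the muscle list summed to 8 counts with bait and 4 counts without, 0.000764% (0.000330% to 0.00151%) and 0.00148% (0.000404% to 0.00380%). miR-208a-3p and miR-208b-3p were at 0 in both libraries. miR-133a-3p, miR-133b and miR-499a-5p had 2 counts each with bait and 0 without. miR-1-3p had 2 counts with bait and 4 without, and its close likeness to miR-206 makes both counts uncertain, as no source used here states how shared reads were treated. miR-613 had 0 counts in both. miR-126 is known from endothelium, platelets and other blood cells. The 7 blood cell markers took 0.0432% of counts with bait and 0.0864% without, of which miR-486-5p alone supplied 386 of 452 counts and 214 of 233. Its ratio was 0.465 (0.392 to 0.552), a lower call that TMM and DESeq2 factors ended. The erythroid miR-451a had 4 counts with bait and 10 in the other library, and miR-223-3p, miR-144-3p and miR-150-5p were at 0 in both. The arms of miR-142 did not share the direction of miR-486-5p: miR-142-3p had 17 counts with bait and 0 in the other library, and the ratio of miR-142-5p was 1.29 (0.622 to 3.00). The material is labelled as lysate of a breast cancer line, and the part of such cells in the level of miR-126-3p was not tested.

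Other miRNAs described as metastasis suppressors in breast cancer were read beside the members. Of 21 listed names 11 were tested, 4 were higher and 0 lower, beside 39.4% higher and 26.8% lower over all tested miRNAs. Their median log2 ratio was 0.82 beside 0.55 for all tested miRNAs. miR-30a-5p, described as restraining the mesenchymal state, was 6.27-fold higher (5.97 to 6.58). miR-340-5p, described as a repressor of MET, was 3.50-fold higher (2.38 to 5.33), with 380 counts with bait and 28 without. miR-29b-3p, a regulator of collagens and other matrix genes, was 3.13-fold higher (1.74 to 6.20). miR-193b-3p, described as a repressor of the urokinase gene PLAU, was also called higher, with 87 counts with bait and 0 without. Setting this 0 to 3 counts gave a ratio of 7.47, which is not a minimum. The interval from the observed counts began at 5.95 and had no upper limit.

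The remaining tested suppressors passed neither rule. miR-146a-5p and miR-146b-5p, regulators of NF-kB signalling, had ratios of 1.77 (1.63 to 1.93) and 1.62 (1.20 to 2.23). The p53-induced miR-34a-5p had 31 counts with bait and 3 in the other library, and the interval of its ratio of 2.66 ran from 0.830 to 13.6. The ratio of miR-148a-3p was 1.27 (1.20 to 1.34), that of miR-200b-3p 1.32 (0.879 to 2.06), that of miR-7-5p 0.898 (0.829 to 0.974) and that of let-7a-5p 0.618 (0.596 to 0.641). DESeq2 size factors brought the list to 7 higher of 11, beside 114 higher and 44 lower of all 231, under a shift of 0.42 in the median log2 ratio of all tested miRNAs.

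Among miRNAs described as promoting metastasis, 13 of 17 listed names were tested, and 6 were higher and 2 lower, beside the same 39.4% and 26.8% over all tested miRNAs. Their median log2 ratio was 0.78, beside 0.55. The higher members were miR-181a-5p at 8.32-fold (7.13 to 9.76), miR-29a-3p at 5.999-fold (4.90 to 7.41), miR-181b-5p at 5.35-fold (4.54 to 6.35), the hypoxia-induced miR-210-3p at 4.93-fold (2.89 to 9.14), miR-9-5p at 2.28-fold (1.47 to 3.73) and miR-103a-3p at 2.25-fold (1.90 to 2.67). The ratio of miR-10b-5p, described as driven by TWIST1, was 0.386 (0.269 to 0.560), from 78 counts with bait and 52 without. The ratio of miR-222-3p was 0.200 (0.194 to 0.205). miR-21-5p had a ratio of 1.72, miR-182-5p 1.44, miR-22-3p 1.39, miR-221-3p 1.27 and miR-107 1.18 (0.625 to 2.42), and none of these passed a rule. With DESeq2 size factors, where 114 of all 231 were higher and 44 lower, 7 of this list were higher and 1 lower, as miR-21-5p gained a call and miR-10b-5p lost its call. miR-126-3p lay within the range of the higher members of both lists.

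**Figure D4:**
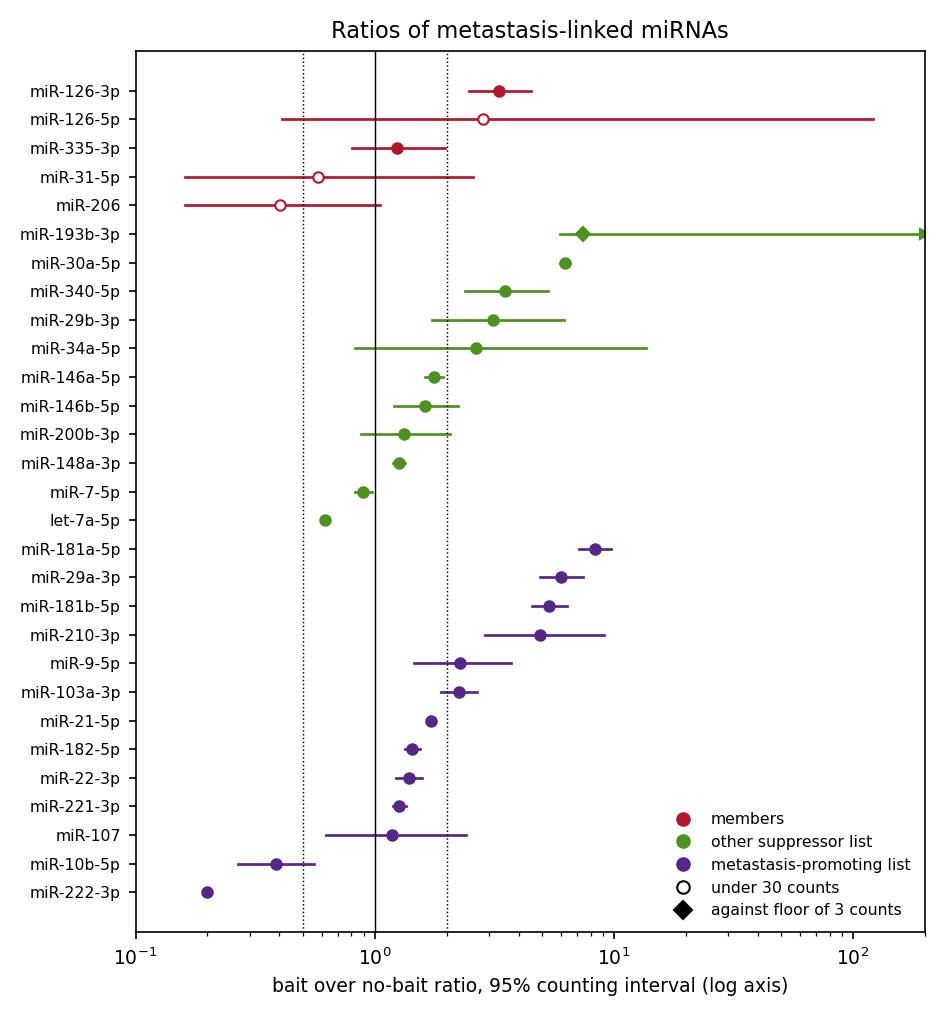
Bait over no-bait ratio (log axis) with its 95% counting interval for the members with counts in both libraries (red), the tested members of the other suppressor list (green) and of the metastasis-promoting list (purple); open symbols mark under 30 counts, the diamond a ratio against the floor of 3 counts, and the dotted lines ratios of 0.5 and 2. miR-126-3p at 3.31 lies among the higher miRNAs of both lists, and the intervals of miR-126-5p, miR-335-3p, miR-31-5p and miR-206 include 1.

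In the authors' deposited table the members appear with larger fold changes where the no-bait library is at 0. There miR-335-5p has a log2 fold change of 10.04 and miR-31-3p one of 6.57. These come from 11 counts and 1 count with bait, since the authors' deposited table replaces 0 RPM by 0.01 before the ratio is taken. The same table gives miR-126-3p a log2 fold change of 1.73 and a p-value of 0.00787 from a test that is not named, which compares 2 libraries and not conditions. In the authors' deposited table the other members have p-values of 0.0565 or more. With 0.5 counts added to both libraries the ratio of miR-335-5p was 5.92, and against the floor of 3 counts it was 0.944, so the size of its ratio is set by the treatment of the 0.

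The call of miR-126-3p held under each scaling, as the plot of ratios by scaling shows. Its ratio was 3.68 (2.75 to 5.03) with edgeR TMM factors, 4.44 (3.31 to 6.06) with DESeq2 size factors and 3.03 (2.26 to 4.14) once the 5 most abundant miRNAs were left out of the totals. In each of these the lower bound itself exceeded 2.

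**Figure D5:**
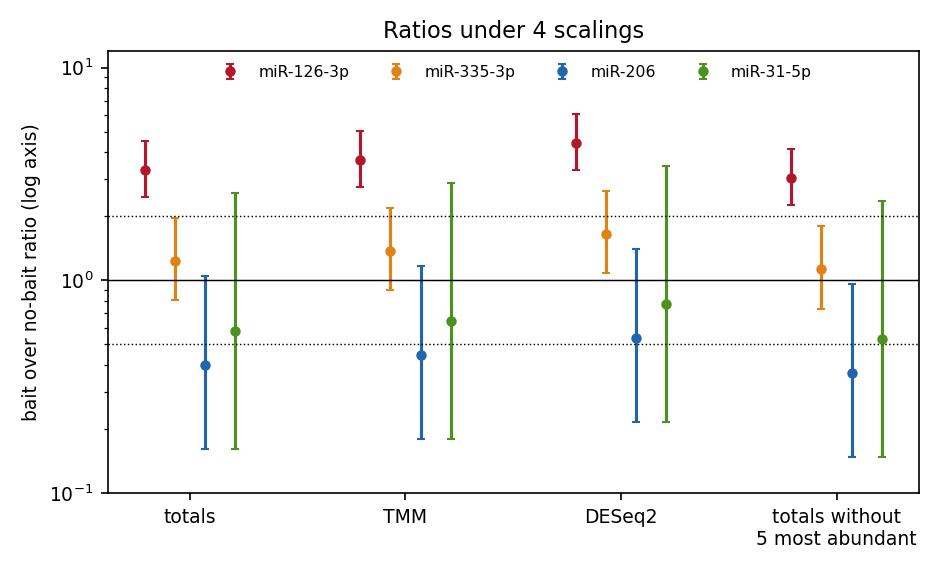
Bait over no-bait ratio (log axis) with 95% counting intervals of miR-126-3p, miR-335-3p, miR-206 and miR-31-5p under library totals, edgeR TMM factors, DESeq2 size factors and totals that leave out the 5 most abundant; dotted lines mark 0.5 and 2. The interval of miR-126-3p lies above 2 in all 4, that of miR-335-3p excludes 1 with DESeq2 alone, and that of miR-206 with the last scaling alone.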

How the data were processed

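Small RNAs eluted from the resin with maltose were sequenced as 1 library with bait and 1 without. For each, the authors deposited whole-number counts per mature miRNA and a normalized value in RPM, which equalled the count over the library total within 0.00994 RPM. The authors' deposited table of comparisons adds a log2 fold change and a p-value. The submitters' processing notes name BWA and no version. No source used here gives the miRNA reference, trimming or handling of shared reads.

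Ratios of counts over library totals had exact conditional binomial 95% intervals (scipy 1.17.1). The interval code was tested on simulated Poisson counts, which hold no variation between replicate libraries. A library at 0 was set to a floor of 3 counts for the ratio. The named miRNAs are the 7 members, the tested members of both lists, the 3 nearest miRNAs of each tested member and those sharing a seed. Members and lists were chosen with earlier results of these data known. Sequences are from RefSeq and annotation from GENCODE 29. Alternatives were edgeR 4.0.16 TMM factors, DESeq2 1.42.0 size factors, totals without the 5 most abundant miRNAs, deposited RPM in place of counts, minimums of 10 and 100 counts or none, an interval bound beyond 2-fold, and 0.5 added counts. Intervals widened for the number of pairs were added after seeing the data.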

Additional observations from a re-analysis of the deposited data

How the results depend on the processing

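The counts of members called, 1 higher and 0 lower, were the same under each scaling, count minimum, the deposited RPM and the stricter interval bound. For all tested miRNAs 59 were higher and 37 lower at a minimum of 100 counts, beside 91 and 62, as fewer miRNAs were tested, and no count filter gave 100 lower. The median ratio of the other suppressor list was 1.77, and 2.37 with DESeq2 size factors, which raise every ratio, and 2.66 at a minimum of 10 counts, where 13 names were tested. In all, 37 alternative values of the main results did not move, which means within 1.5 times for a count and between the medians of the interval bounds for a list's median. For single members and hairpins, 33 alternative values stayed within the counting interval, and widening the intervals for the number of pairs left 2 of 5 pairs of members apart. The depth of the no-bait library, where 3 counts are 11.1 RPM, limits miR-31, miR-335-5p, miR-126-5p and miR-206. No paired analysis was possible because each group has 1 library. No library could be left out for the same reason.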
